A study of Mus musculus with 6 samples.

Results

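Cohesin subunits and their meiotic counterparts were followed in mouse leukaemic pre-B cells with and without deletion of Ppp2r1a, which encodes the scaffold of protein phosphatase 2A (PP2A). The set holds 10 genes of 19733 tested: the somatic subunits Smc1a, Smc3, Rad21, Stag1 and Stag2, the cohesin release factor Wapl, the meiotic subunits Stag3, Rec8 and Smc1b, and Sycp3, a protein of the meiotic chromosome axis. The genes were chosen by name, as parts and partners of 1 complex, around Stag3, which had been picked from its rise in the comparison described here. The changes of the 10 genes are therefore given as a description, without p-values. Each gene had 1 probe set, and all 10 were measured.

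The cells were bone marrow pre-B cells with floxed Ppp2r1a alleles, transduced with BCR-ABL1, the fusion kinase of Philadelphia chromosome leukaemia. They then received either a Cre vector, which deletes Ppp2r1a (3 arrays), or an empty vector, EV (3 arrays). Both groups carry the floxed alleles and BCR-ABL1, although the labels call the genotype of the EV cells wild type. No array held Cre in cells without floxed alleles, so effects of Cre and of the deletion cannot be told apart. The labels name no strain, age or time after transduction and do not say whether repeats were separate cultures or mice, so p-values here may reflect technical spread alone.

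Values are log2 levels of Affymetrix probe sets. Ppp2r1a read 7.12, 6.98 and 6.92 on the Cre arrays against 9.06, 9.05 and 9.06 on the EV arrays. By rank it moved from the percentile 94.0 in EV to 73.2 in Cre, so a reading above the median gene remained. The source of that reading was not tested, and complete deletion in all Cre cells is not shown. Of 13 B lineage markers measured, all lay above the median gene in both groups, and 3 were lower in Cre: Rag1, Rag2 and Dntt, which act in V(D)J recombination. The pre-B genes Igll1 and Vpreb1 were among the top 1% of genes by rank (percentiles 99.7 and 99.6 in EV). All 8 myeloid markers and all 3 erythroid markers measured lay below the median gene in both groups, as did 6 of 7 T cell markers in EV and 4 of 6 stromal markers. The log2 of the summed myeloid level was 6.88 to 6.93 in EV and 6.99 to 7.05 in Cre, which did not overlap; whether this bears on any value below was not tested. Of the 19733 genes, 689 (3.49%) were called at a limma adjusted p below 0.05 (Benjamini-Hochberg over all genes), 267 of them higher in Cre (1.35%) and 422 lower (2.14%). The arrays of the groups did not overlap for 4441 genes (22.5%).

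Cohesin is a ring of proteins that holds sister chromatids together after replication and shapes chromatin loops in interphase. In somatic cells the SMC subunits Smc1a and Smc3 are closed by the kleisin Rad21, and Stag1 or Stag2 binds the kleisin. In germ cells entering meiosis, Smc1b, Rec8 and Stag3 take the places of Smc1a, Rad21 and the somatic Stag proteins, and the rings build the chromosome axis with Sycp3. At centromeres, shugoshin brings PP2A to cohesin and keeps it from being removed early, which links this complex to the deleted phosphatase. Genes of the meiotic set are normally silent in somatic cells, where a Polycomb-type complex with E2F6, MGA and PCGF6 binds many of their promoters.

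Promoter sequences of 3 meiotic genes are shown because Stag3 differed between the groups while Smc1b and Sycp3, of the same set, did not differ beyond their spread. Rec8 did not differ beyond its spread either, and its window is not printed. Each run is a RefSeq window of build GRCm38.p6, 250 bases before to 50 after the start site, 5′ to 3′ on the gene's strand. The capitals mark matches to CACGTG (an E-box, the kind of letters MGA and MAX bind) and to GCGGGA (letters of an E2F type site) on either strand. Stag3 lies at chr5:138280259-138280558 on the plus strand, Smc1b at chr15:85131908-85132207 on the minus strand and Sycp3 at chr10:88459337-88459636 on the plus strand.
Stag3: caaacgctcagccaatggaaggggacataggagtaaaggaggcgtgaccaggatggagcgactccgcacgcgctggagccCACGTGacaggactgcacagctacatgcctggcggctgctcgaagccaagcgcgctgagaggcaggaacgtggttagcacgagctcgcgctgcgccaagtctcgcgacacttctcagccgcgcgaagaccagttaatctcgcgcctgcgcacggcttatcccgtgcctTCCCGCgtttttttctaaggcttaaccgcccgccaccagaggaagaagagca
Smc1b: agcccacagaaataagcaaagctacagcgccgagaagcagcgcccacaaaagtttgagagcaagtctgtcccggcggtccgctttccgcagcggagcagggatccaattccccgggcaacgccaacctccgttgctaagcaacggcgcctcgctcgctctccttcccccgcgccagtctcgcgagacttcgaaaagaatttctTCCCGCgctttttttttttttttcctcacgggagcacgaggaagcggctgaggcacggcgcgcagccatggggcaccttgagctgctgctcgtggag
Sycp3: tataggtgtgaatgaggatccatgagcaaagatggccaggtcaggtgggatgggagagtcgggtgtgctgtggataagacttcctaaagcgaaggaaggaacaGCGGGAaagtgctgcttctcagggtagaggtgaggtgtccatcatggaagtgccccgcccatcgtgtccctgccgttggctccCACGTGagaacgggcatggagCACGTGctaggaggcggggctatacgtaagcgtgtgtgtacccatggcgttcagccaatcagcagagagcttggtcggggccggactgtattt

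The Stag3 window held 1 E-box whose first base lay at -170 from the start site and 1 E2F type match at -2. The Sycp3 window held E-boxes at -64 and -43 and an E2F type match at -147. The Smc1b window held an E2F type match at -47 and no E-box. Over all 32851 promoter windows of the same length in the table, 2349 (7.15%) held the E-box, 6562 (20%) held the E2F type letters and 655 (1.99%) held both. Windows were given for 8 of the 10 genes, all but Stag2 and Rad21. Of these 8, an E2F type match stood in 7, among them the somatic Stag1, Smc1a and Smc3 and the meiotic Rec8 (at -38). An E-box stood in 2, Stag3 and Sycp3.

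In Stag3 and Smc1b the E2F type match was followed by the same letters: TCCCGCG, any base, then at least 6 T. This pattern was picked after both windows had been read. It occurred in 4 of the 32851 windows (0.0122%), which belong to Stag3, Smc1b and Ribc2, whose 2 windows overlap that of Smc1b on the opposite strand. Ribc2 read 4.17, 4.31 and 4.23 in Cre and 4.24, 4.11 and 4.31 in EV. Of the genes that share these letters, the groups were thus far apart for Stag3 and overlapped for Smc1b and Ribc2. The Stag3 window held 30 CG dinucleotides and that of Smc1b 29, against a median of 7 over all windows. The other member windows held 43 (Stag1), 35 (Wapl), 32 (Smc3), 23 (Smc1a), 18 (Rec8) and 15 (Sycp3). Such numbers were thus not particular to Stag3 and Smc1b.

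Stag3, the meiotic Stag protein that binds Rec8 or another meiotic kleisin, read 3.90, 4.10 and 4.31 on the EV arrays. On the Cre arrays it read 7.65, 7.47 and 7.58. All 3 Cre arrays lay above all 3 EV arrays, with a gap of 3.16 between the nearest pair. The group means were 4.10 ± 0.21 in EV and 7.57 ± 0.09 in Cre (SD, n = 3), and the change was 3.46 (SE 0.11) on the log2 scale. By rank among the 19733 genes, Stag3 moved from the percentile 28.0 in EV to 80.3 in Cre. It had the highest rise of all genes tested and rank 5 by size in either direction. The arrays measured bulk RNA, so more cells with Stag3 RNA and more RNA per cell cannot be told apart, and from a dim EV level the log2 change can understate the fold.

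The other meiotic members stayed at low readings. Rec8, the meiotic kleisin that Stag3 binds, read 4.18, 4.12 and 4.27 in EV and 4.25, 4.29 and 4.13 in Cre, a change of 0.04 (SE 0.07). The groups overlapped. Smc1b, the meiotic SMC subunit, read 2.86, 2.87 and 2.83 in EV and 2.70, 2.82 and 3.03 in Cre, with the EV arrays inside the Cre range and a change of -0.001 (SE 0.09). Sycp3 read 2.86, 2.86 and 2.91 in EV and 3.03, 2.86 and 2.55 in Cre, a change of -0.06 (SE 0.12). Its EV arrays also lay inside the Cre range. By rank these 3 genes stood at the percentiles 29.6, 8.0 and 8.3 in EV, and at 30.2, 8.1 and 7.6 in Cre.

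**Figure D1:**
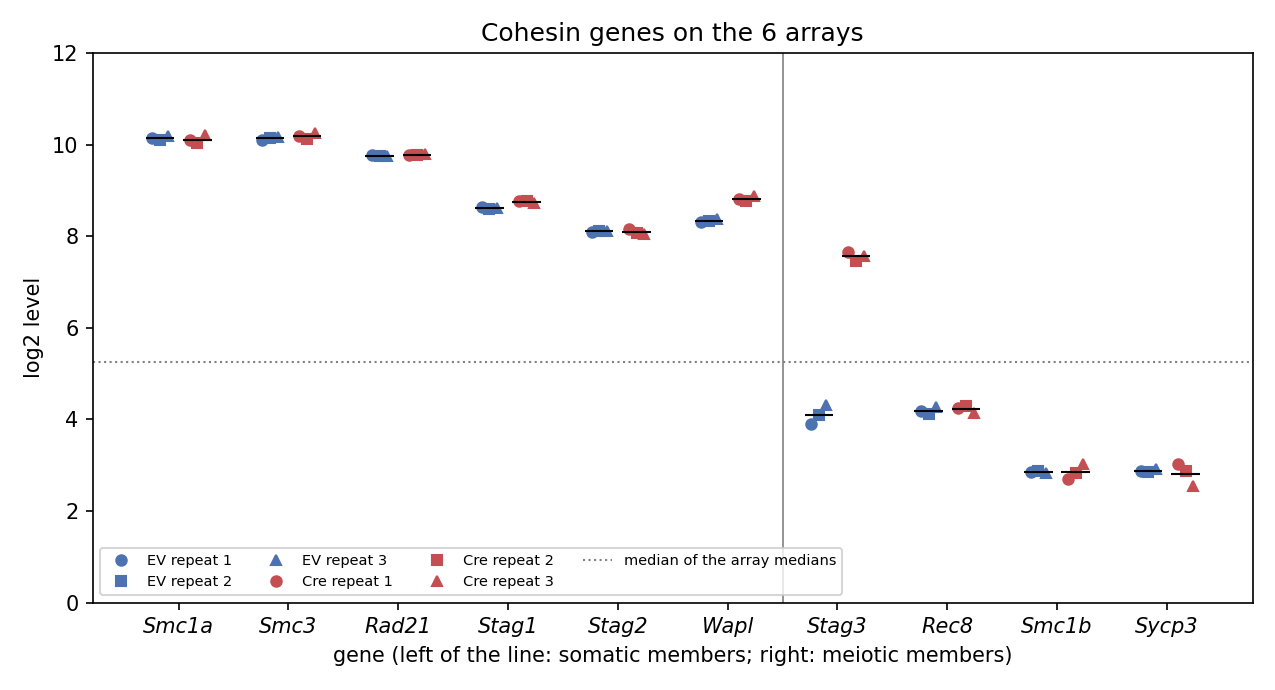
Log2 level of each gene on each array, EV in blue and Cre in red, with the 3 repeats as separate markers and black bars at the group means; the dotted line is the median of the 6 array medians. Stag3 lies between 3.90 and 4.31 in EV and between 7.47 and 7.65 in Cre, while Rec8, Smc1b and Sycp3 lie under the dotted line in both groups.

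The somatic ring was present at high readings in both groups and moved little. Smc1a read 10.15, 10.11 and 10.18 in EV and 10.11, 10.03 and 10.20 in Cre, a change of -0.04 (SE 0.07) with overlapping groups. Smc3, its partner, read 10.11, 10.14 and 10.17 in EV and 10.18, 10.12 and 10.25 in Cre, a change of 0.05 (SE 0.07). These groups overlapped too. Rad21, the somatic kleisin, read 9.77, 9.74 and 9.75 in EV and 9.78, 9.77 and 9.80 in Cre. Its arrays did not overlap, but by a gap of only 0.003, and the change of 0.03 had an SE of 0.06.

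Of the somatic Stag proteins, Stag1 read 8.63, 8.58 and 8.61 in EV and 8.76, 8.76 and 8.73 in Cre. Its arrays did not overlap, with a gap of 0.10 and a change of 0.14 (SE 0.06), and it was not called. Stag2, the X-linked form, read 8.10, 8.12 and 8.11 in EV and 8.15, 8.06 and 8.05 in Cre, a change of -0.02 (SE 0.06) with overlap. The rise of Stag3 was thus not matched by a fall of either somatic form in these values.

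Wapl, which opens the ring and releases cohesin from chromatin, read 8.30, 8.34 and 8.38 in EV and 8.80, 8.76 and 8.89 in Cre. Every Cre array lay above every EV array, with a gap of 0.39. The change was 0.48 (SE 0.07), 1.39-fold, and put Wapl at rank 211 among the rises. Wapl and Stag3 were the 2 of 10 members called, both higher, and the arrays did not overlap for 4 of 10. Over all genes 3.49% were called and 22.5% did not overlap; the set was built on this contrast, and nothing is read from these shares. The median change of the 6 somatic members was 0.04 and that of the 4 meiotic members 0.02, against -0.003 over all genes tested.

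**Figure D2:**
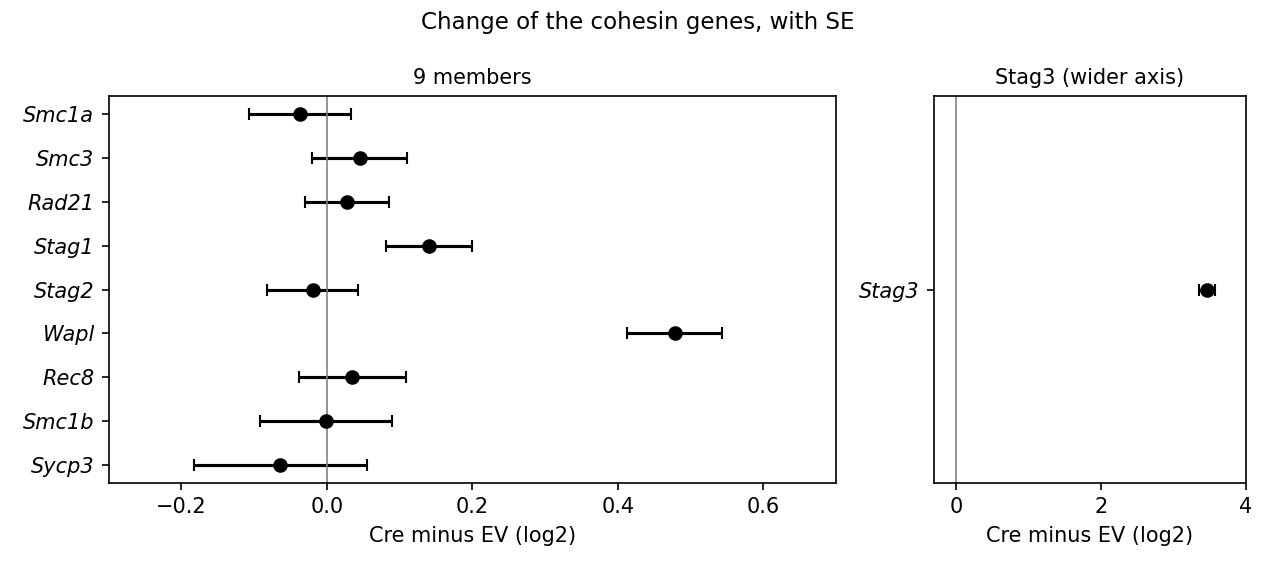
Change of each gene as Cre minus EV on the log2 scale, with the SE of the moderated fit; Stag3 has its own panel with a wider axis. Stag3 lies at 3.46 and Wapl at 0.48, while the other members lie between -0.06 and 0.14.

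Set in the order of the array, the 6 somatic members ranked between the percentiles 86.4 (Stag2) and 97.8 (Smc1a) in EV, and the 4 meiotic members between 8.0 and 29.6. In Cre the somatic range was 86.3 to 97.9, and Stag3 had left the meiotic range for 80.3. Probe sets differ in how strongly they bind, so these ranks place each gene among all genes and do not compare amounts of RNA between genes.

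Proteins that load, lock, protect and remove cohesin made up a list of 24 measured genes. None (0) was called by limma, beside 3.49% over all genes, a share at which under 1 call falls in a list of this size (3 had an unadjusted p below 0.05). Of the 24, 14 had a positive change, and the median was 0.04. Espl1, the separase that cuts the kleisin at anaphase, read 7.37, 7.39 and 7.47 in Cre and 7.07, 7.25 and 7.23 in EV, a change of 0.23 (SE 0.07; limma adjusted p = 0.166). Timeless, of the replication fork, differed by -0.24 (SE 0.09; limma adjusted p = 0.253). The next genes were named for their roles. The loaders Nipbl and Mau2 differed by 0.05 (SE 0.06) and -0.03 (SE 0.06), and Pds5a and Pds5b, which bind Wapl, by -0.02 and -0.03 (SE 0.06 and 0.06). Sgo1, the mitotic shugoshin, read 8.86, 8.84 and 8.75 in Cre and 8.69, 8.75 and 8.81 in EV. Sgo2a, the shugoshin that protects meiotic cohesin, read 8.70, 8.80 and 8.51 in Cre and 8.43, 8.49 and 8.49 in EV. The groups overlapped for Sgo1, and for Sgo2a all Cre arrays lay above the EV arrays; its change was 0.20 (SE 0.09; limma adjusted p = 0.311).

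Ppp2r1a apart, 8 PP2A genes that shugoshin can recruit were measured (the B56 subunits, the second scaffold gene and both catalytic genes). Of these, 0 were called by limma, beside 3.49% over all genes, and 0 had an unadjusted p below 0.05. Ppp2ca, a catalytic subunit, had the smallest p of the list, with a change of 0.08 (SE 0.06; limma adjusted p = 0.595). Next came Ppp2r5b, a B56 subunit, with a change of -0.11 (SE 0.09; limma adjusted p = 0.62). A list of the related condensin and SMC5/6 complexes, with Smchd1 added, had 0 of 17 genes called by limma, beside the same 3.49% (3 at an unadjusted p below 0.05). With lists this short, nothing is read from these counts. Smchd1, an SMC-like protein of the silent X chromosome, differed by -0.25 (SE 0.07; limma adjusted p = 0.12), and Ncapd2, of condensin, by 0.16 (SE 0.06; limma adjusted p = 0.267).

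Of 74 other meiotic or germ cell genes measured, 4 were called (5.41%), beside 3.49% over all genes. Of the 4, 1 was higher in Cre (1.35% of the 74, beside 1.35% over all genes) and 3 were lower (4.05%, beside 2.14%). The 74 leave out Prm1, Tnp1 and Acrv1, which were measured only as markers of spermatogenic cells. Tnp1 and Acrv1 were not called, but Prm1 was called higher (change 0.70, limma adjusted p = 0.0468). The share higher thus depends on which genes the lists hold. None of the 74 changed by 2-fold, their median was -0.02, and 62 lay under the median gene in EV.

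Among 15 genes of the chromosome axis and of synapsis, 1 fell and 0 rose (6.67% called, beside 3.49% over all genes). Syce2, of the central element of the synaptonemal complex, read 7.59, 7.43 and 7.59 in EV and 6.84, 6.57 and 6.70 in Cre. All Cre arrays were lower, and the gene fell 1.79-fold (change -0.84, SE 0.09; limma adjusted p = 0.00263). It moved opposite to Stag3, and in EV it stood at the percentile 79.8. Rad21l, the other meiotic kleisin, read 2.54, 2.25 and 2.91 in Cre and 2.71, 2.69 and 2.45 in EV. Hormad1, an axis protein, read 4.34, 4.07 and 4.07 in Cre and 4.19, 4.20 and 4.10 in EV. Both genes overlapped between the groups and lay under the median gene. The listed Terb1, of meiotic telomeres, differed by -0.21 (SE 0.07; limma adjusted p = 0.213).

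Among 24 genes of meiotic recombination and entry, 1 rose and 1 fell (8.33% called, beside 3.49% over all genes). With lists this short, nothing is read from such shares. Zcwpw1, a reader of the histone marks that Prdm9 writes, read 4.09, 4.04 and 4.17 in EV and 4.52, 4.64 and 4.59 in Cre, and rose 1.40-fold (change 0.48, SE 0.07; limma adjusted p = 0.00963). Its arrays did not overlap, and it stayed below the median gene. Hfm1, a crossover helicase, read 5.13, 5.07 and 5.11 in EV and 4.77, 4.72 and 4.77 in Cre, and fell 1.27-fold (change -0.35, SE 0.06; limma adjusted p = 0.0224). The call of Hfm1 failed in each of the 6 fits of 5 arrays (highest limma adjusted p = 0.0907). Stra8, which starts meiosis in germ cells, read 3.49, 3.81 and 3.68 in EV and 3.72, 3.74 and 3.55 in Cre. Dmc1, the meiotic recombinase, read 3.66, 3.51 and 3.52 in EV and 3.66, 3.48 and 3.45 in Cre. For both the groups overlapped.

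Among 35 germ cell genes outside meiosis, 1 fell and 0 rose (2.86% called, beside 3.49% over all genes). Prm1, given below as a marker, is not among the 35. Of the 35, 33 lay under the median gene in EV. Tdrkh, of the piRNA pathway, read 3.60, 3.44 and 3.49 in EV and 2.78, 3.08 and 2.90 in Cre, a fall of 1.51-fold at dim levels (change -0.59, SE 0.09; limma adjusted p = 0.0138). That call failed when Cre replicate 3 was omitted (or EV replicate 1), with a highest limma adjusted p of 0.0582 over the fits of 5 arrays. Hspa2, a heat shock protein of spermatocytes, read 6.34, 6.24 and 6.42 in EV and 6.56, 6.59 and 6.59 in Cre and was not called (change 0.25, SE 0.07; limma adjusted p = 0.114). Ddx4, the germ cell helicase, read between 2.18 and 2.74 on the 6 arrays, and Dazl, a germ cell RNA-binding protein, between 2.62 and 3.03. Of 8 markers of spermatogenic cells, 1 was called, Prm1, beside 3.49% over all genes. Prm1, a protamine, read 7.05, 7.19 and 7.10 in Cre and 6.74, 6.37 and 6.11 in EV (change 0.70, SE 0.15, limma adjusted p = 0.0468). The call of Prm1 held in 1 of the 6 fits of 5 arrays (highest limma adjusted p = 0.157). Prm1 was named after its values were seen. The log2 of the summed level of these 8 markers lay between 7.37 and 7.72 in EV and between 7.87 and 7.96 in Cre. The sums did not overlap, but Prm1 was the brightest of the 8 markers and weighed most in them. Prm1 was also the only 1 of the 8 whose own arrays did not overlap between the groups. The sums therefore do not show a rise of the 8 markers as a set. Of the 8 changes, 6 were positive with a median of 0.15, and 6 of the 8 markers lay under the median gene in both groups. The part of such cells in the Stag3 value was not tested.

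Of 24 genes known to keep germ cell genes silent, 1 fell and 0 rose (4.17% called, beside 3.49% over all genes), with a median of 0.01. Dnmt3a, a DNA methyltransferase, read 7.26, 7.28 and 7.31 in EV and 6.86, 6.93 and 6.83 in Cre, and fell 1.33-fold (change -0.41, SE 0.06; limma adjusted p = 0.0135). Its call failed in 4 of the 6 fits of 5 arrays, those that omitted Cre replicate 1, Cre replicate 3, EV replicate 2 and EV replicate 3 (highest limma adjusted p = 0.0579). Pcgf6, of the Polycomb-type complex at germ cell promoters, read 7.44, 7.54 and 7.56 in EV and 7.26, 7.20 and 7.22 in Cre. All its Cre arrays were lower, but it was not called (change -0.29, SE 0.07; limma adjusted p = 0.0623). Its partners E2f6 and Mga differed by 0.04 (SE 0.10) and -0.14 (SE 0.08), and Dnmt1, which copies DNA methylation, by -0.06 (SE 0.06).

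**Figure D3:**
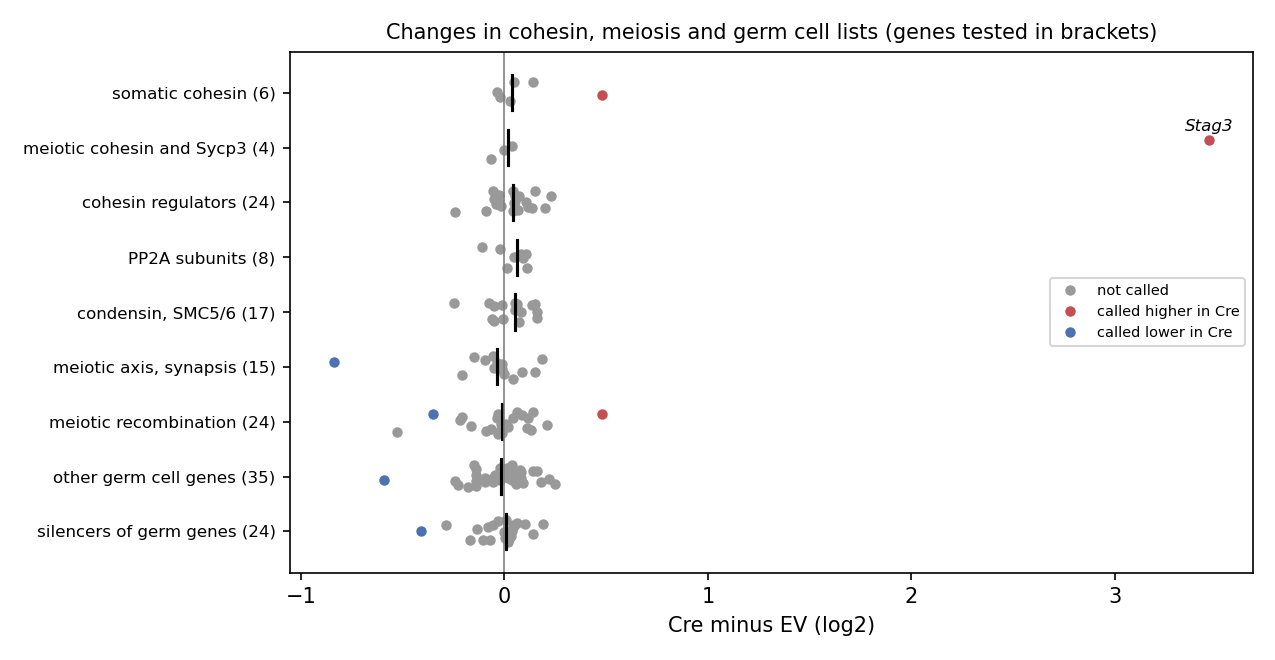
Change of every measured gene in the 9 lists as Cre minus EV on the log2 scale, one dot per gene with vertical jitter, red where called higher in Cre, blue where called lower and grey where not called; black bars are list medians. Stag3 stands alone at 3.46, while Syce2 at -0.84 is the lowest gene of the lists.

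Stag3 spans chr5:138272514-138312397 in GRCm38.p6, and its RefSeq span overlaps Gal3st4 at its left end and contains Gpc2. The promoter window shown above lies inside that span, to the right of the ends of Gal3st4 (138273057) and Gpc2 (138280026). Gal3st4, a sulphotransferase gene, read 3.81, 3.79 and 3.43 in Cre and 3.87, 3.51 and 3.66 in EV, with a change of -0.003 (SE 0.13). Gpc2, a glypican gene, read 5.46, 5.79 and 5.62 in Cre and 5.32, 4.98 and 5.50 in EV, a change of 0.36 (SE 0.14; limma adjusted p = 0.27), and its groups overlapped. The other genes among the nearest 3 with a probe on each side were Lamtor4 (-0.10, SE 0.09), Map11 (-0.005, SE 0.06), Gm10874 (-0.14, SE 0.08) and Zfp157 (0.06, SE 0.10), and none was called.

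Within 1000000 bases of the Stag3 start on either side, a width set after the values were seen, 58 other genes were tested. Of these 2 were called higher and 0 lower (3.45% called, beside 3.49% over all genes), with a median change of -0.002. Both start to the left of Stag3, Zcwpw1 at -485.4 kb and Mospd3, which encodes a membrane protein, at -675.9 kb. Mospd3 read 6.02, 6.08 and 6.13 in EV and 6.49, 6.44 and 6.42 in Cre, a rise of 1.30-fold (change 0.37, SE 0.06; limma adjusted p = 0.0215).

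**Figure D4:**
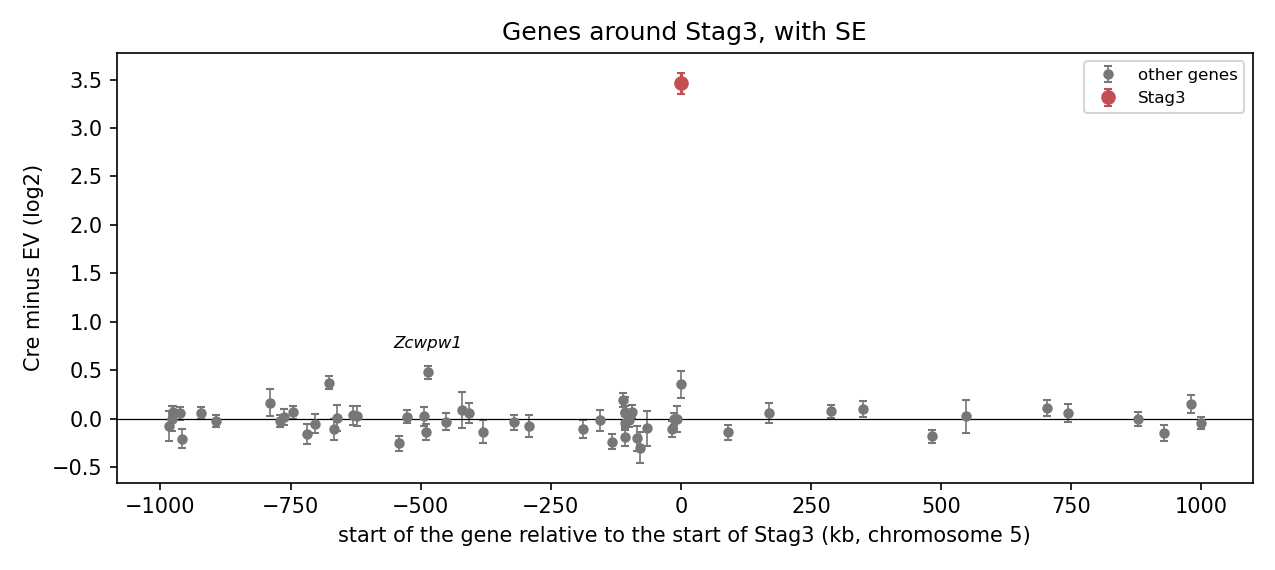
Change as Cre minus EV (log2, with SE) of the 58 tested genes that start within 1000 kb of Stag3, against the distance of their starts from that of Stag3. Stag3 lies at 3.46 and the others between -0.30 and 0.48.

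Predicted genes (named Gm with a number, or ending in Rik) were left out of a ranking by likeness to Stag3. Of the rest, those whose pattern over the 6 arrays was most like that of Stag3, by Pearson correlation, were Dzip1, Cdc42bpa, Taldo1, Cd48 and Edem1, with r between 0.9980 and 0.9990. With 2 groups on 6 arrays this measure mainly picks genes with a tight rise in Cre, and it is a description. Dzip1, a ciliary protein, read 4.53, 4.72 and 4.70 in EV and 7.02, 6.96 and 6.97 in Cre, the nearest in size. Cd48, a surface receptor of leukocytes, rose by 0.98 (SE 0.07), Edem1, of endoplasmic reticulum quality control, by 0.89 (SE 0.06), Cdc42bpa, a kinase, by 0.82 (SE 0.07) and Taldo1, a transaldolase, by 0.35 (SE 0.06). Among the cohesin genes the same correlation was 0.990 for Wapl and 0.961 for Stag1, and it lay between -0.30 and 0.79 for the others.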

How the data were processed

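RNA of 6 samples (3 Cre, 3 EV, grouped by title) was measured on 1-colour Affymetrix arrays. The authors deposited log2 levels per probe set made, per the submitters' processing notes, with RMA, for which no version is stated. RMA sets the arrays to 1 distribution, so changes are relative to other genes; array medians lay between 5.22 and 5.27. No detection calls were used, and precision is limited by having 3 arrays per group.

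Of 25006 probe sets, 21467 had 1 gene symbol in the platform annotation, 1521 several and 2018 none; 21386 of the first were matched to RefSeq (GRCm38.p6) by gene identifier. The probe set with the highest mean stood for each of 19733 genes. Genes were compared with limma 3.58.1 in R 4.3.3 (lmFit, eBayes, no block, no filter; adjusted p below 0.05), and the fit was tested on simulated data. Tables and plots used Python 3.11.15, pandas 2.3.3 and matplotlib 3.10.9. Promoter windows are RefSeq's.

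The members and gene lists were chosen with earlier results of these data known. All members were named, and from each list up to 5 called genes, or, with under 2 called, the 2 with the smallest p, plus the 5 genes most like Stag3 and its nearest 3 on each side; role-based names beyond these were chosen with values in view. Of the list entries, 3 of 18 for axis and synapsis and 6 of 30 for recombination and entry had no tested gene. The alternatives were a replicate block, renormalization, filters on dim genes, other eBayes settings, array weights, other probe rules and leaving out each array. The labels do not say whether same-numbered repeats were paired, and the test did not pair them.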

Additional observations from a re-analysis of the deposited data

How the results depend on the processing

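Stag3 was picked from its rise on these arrays, so its call in refits of the same arrays is a description and no separate check. It was called higher in all 15 alternatives, and its change lay between 3.36 and 3.57 with 1 array left out. Wapl was also called in all 15, between 0.44 and 0.51 with 1 array left out, and 2 members were called each time. The 15 are not separate checks of size. Stag3 and Wapl had 1 probe set each, so other probe rules could not alter them. The block, the filters and the trend and robust settings also left the changes of Stag3 and Wapl as in the test. The low filters removed Smc1b and Sycp3 at 25% and also Rec8 at 50%, so these have no value there. The changes of Smc1a, Smc1b, Rec8 and Sycp3, which were not called, changed sign in at least 1 alternative.

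Counts of called genes moved more. With the repeat number as a replicate block, 425 genes were called, 1 in meiotic recombination and entry, 0 in germ cell genes outside meiosis and 0 in silencers of germ cell genes. The block was not used in the test: deviations of same-numbered arrays correlated with r of 0.009, -0.012 and 0.03. Without the lowest 50% of genes, 1295 were called, and with trend and robust settings 1558. Under the 50% filter 1 cohesin regulator (Espl1) and 1 gene of the condensin and SMC5/6 list (Smchd1) were called. So were 1 recombination gene, 1 germ cell gene outside meiosis and 2 silencers (Dnmt3a and Pcgf6). That recombination gene was Mlh3 and that germ cell gene Hspa2, neither of them called in the test reported, while Zcwpw1, Hfm1 and Tdrkh were removed by the filter. Under trend and robust settings 2 genes of the condensin and SMC5/6 list (Smchd1 and Smc4) were called. These settings also called 3 recombination genes (Mlh3 beside Zcwpw1 and Hfm1) and 2 silencers. The 25% filter gave 2 silencers and 0 germ cell genes outside meiosis, as it removed Tdrkh. With the mean of all probes or the probe with the lowest mean, 1 recombination gene was called. Apart from genes removed by a filter, the cause of these differences was not tested. The filters also lowered the number of genes tested.

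With 1 array left out, between 362 and 424 genes were called, 1 to 1 in recombination and entry, 0 to 1 in germ cell genes outside meiosis and 0 to 1 in silencers. The lowest count of genes came without EV replicate 2. Readings near the lower end of the range limit what can be said of Smc1b, Sycp3 and most germ cell genes.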
